A study of Mus musculus with 11 samples.

Results

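The genes of the proteasome were followed in blood stem cells of mice that had lost their platelets. Members were the genes whose symbol joins Psma, Psmb, Psmc, Psmd, Psme, Psmf or Psmg to digits, pseudogenes left out, with a summed raw count of at least 110 over the 11 libraries. Of 48 such symbols among 49585 entries in the table, 47 were members (12299 entries in all reached that sum). The remaining one, Psmb11, a thymic subunit, had a count of 0. The member nearest to the minimum was Psme4 with 1168 counts, so none stood close to it. By their place in the particle, 8 members belonged to the alpha ring, 7 to the constitutive beta ring, 3 to the inducible beta subunits, 9 to the base, 8 to the lid, 5 to the activators with the inhibitor Psmf1, and 7 to the assembly factors.

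All groups held haematopoietic stem cells of C57BL/6 mice, sorted from marrow as Lin- c-Kit+ Sca-1+ CD48- CD150+ and divided by surface CD41, the integrin chain of megakaryocytes and platelets. The groups were CD41+ cells 24 h after platelet depletion (3 libraries), CD41- cells of such mice (3), CD41+ cells of controls given rabbit serum (2) and CD41- cells of those controls (3). Each library was made from RNA of 1000 cells pooled from 3 mice, so p-values measure the spread between pools. The labels do not say whether CD41+ and CD41- libraries came from the same pools. All were fitted as independent, and if pools were shared, depletion p-values averaged over both fractions may be too small. In sorted populations, fewer cells with a transcript and less of it per cell cannot be told apart.

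The proteasome degrades proteins that carry ubiquitin chains. Its barrel-shaped core stacks rings of alpha subunits, which gate the entrance, around rings of beta subunits, whose Psmb5, Psmb6 and Psmb7 cut proteins. A regulatory cap sits on the barrel: the base holds the ATPases that unfold substrates and thread them into the core, and the lid holds Psmd14, which removes the ubiquitin chain. Interferons induce Psmb8, Psmb9 and Psmb10, which replace the constitutive catalytic subunits in the immunoproteasome, a form common in blood cells that favours peptides for presentation on MHC class I. Stem cells of the marrow are known to depend on tight control of protein quality, and proteasome genes of mammals are known to be switched on together by Nfe2l1 when proteasome capacity falls short.

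The libraries held 0.974 M (depleted CD41+ replicate 1) to 9.95 M (depleted CD41- replicate 1) counts. All 47 members passed the filter on low counts that left 13448 genes. Levels are given in CPM, which divides counts by the TMM-scaled library total. The stem cell markers (10 of 10 detected) summed to 872–1650 CPM in depleted CD41+, against 1650–2220 CPM in control CD41+ libraries, and to 1660–2240 CPM in depleted CD41-, against 2640–3400 CPM in control CD41- libraries. Neutrophil transcripts (12 of 12 markers detected) were present in every library and varied widely between libraries of 1 group, with sums of 15000–52500 and 4160–36900 CPM in depleted CD41+ and CD41- libraries, against 24000–84200 and 8440–14700 CPM in the controls. The cDNA was amplified before sequencing and carried no molecular identifiers, so a read is not an independent molecule.

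Members took 1.28%, 1.264% and 1.311% of all counts in the depleted CD41+ libraries, against 1.063% and 0.995% in control CD41+ libraries. In CD41- cells they took 1.073%, 1.1% and 1.217% after depletion, against 0.991%, 0.986% and 0.861% in controls. In neither fraction did depleted and control libraries overlap. On the scaled measure the members summed to 13200 ± 775 CPM in depleted CD41+, against 10830 ± 164 CPM in control CD41+ cells, and to 11110 ± 799 CPM in depleted CD41-, against 9181 ± 961 CPM in control CD41- cells (SD, n = 3, 2, 3 and 3). The plot of all members by library shows that the higher sums came from some classes and not others.

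**Figure D1:**
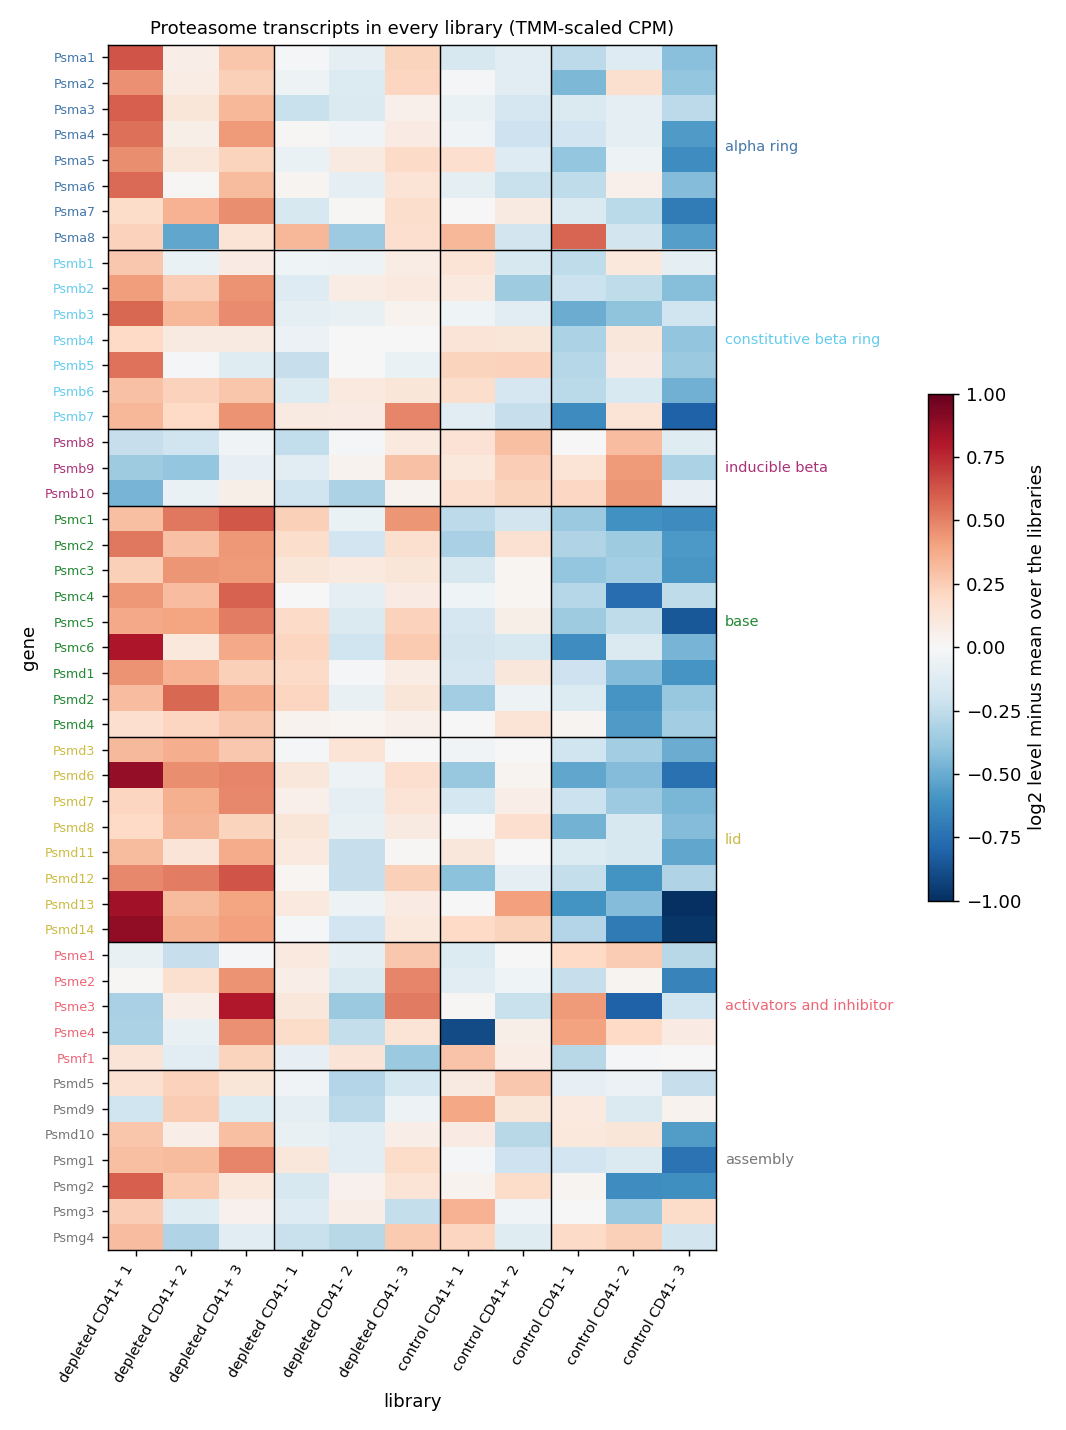
Level of each of the 47 genes in every library, as log2 TMM-scaled CPM minus the gene's mean over the 11 libraries (colour, limited to ±1), with genes in rows by class and libraries in columns by group. Base and lid genes are mostly above their mean in depleted CD41+ libraries and below it in control CD41- libraries, while Psmb8, Psmb9 and Psmb10 are at or below their mean in the depleted CD41+ libraries apart from Psmb10 in replicate 3.

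The start regions of the 3 genes with the smallest adjusted p after depletion among those with a window, and of the inducible genes Psmb8 and Psmb9, are shown because these classes differed in direction. RefSeq windows (GRCm38.p6, 250 bases before to 50 after a gene's start, 300 in all) were matched by symbol for 39 of the 47 members, as 42 windows. Short motifs were searched on both strands: the core of ETS-family sites (CCGGAAG, or CTTCCGG on the other strand), the core of the antioxidant response element (TGANNNNGC), the CCAAT box (CCAAT) and the gamma-activated site (TTCNNNGAA), and they do not share letters in the windows printed. The ETS core stood in 15 of 42 member windows (35.7%), against 17.5% of 12680 windows of genes tested and 8.86% of all 32851 windows. It stood in 7 of 11 windows of genes that rose after depletion and in 0 of 3 windows of inducible genes. For the antioxidant core these were 5 of 11 and 2 of 3, for the CCAAT box 3 and 1, and for the gamma-activated site 1 and 1. Psmc2 gave more than 1 of the 11 windows, each with the ETS core, and Psmc3 and Psmd7 had no window. The share of windows with a motif among all genes called higher is not given here. The antioxidant core stood in 57.1% of member windows and 42.9% of windows of genes tested (41.3% of all windows), the CCAAT box in 31% and 37.6% (37.4% of all), and the gamma-activated site in 7.14% and 6.9% (8.3% of all). A match is a string of letters and shows no binding.

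Psmc1 (chr12:100109952-100110251, plus strand), Psmd6 (chr14:14120896-14121195, minus strand) and Psmd12 (chr11:107479278-107479577, plus strand) are printed with the ETS core in capitals, at positions -28, -45 and -17 from the start in that order. Psmb8 (chr17:34197945-34198244, plus strand) is printed with its gamma-activated site in capitals, at position -97. Psmb9 (chr17:34187281-34187580, minus strand) held neither and has no capitals. The window of Psmb10, not printed, held none of the 4 motifs.
Psmc1: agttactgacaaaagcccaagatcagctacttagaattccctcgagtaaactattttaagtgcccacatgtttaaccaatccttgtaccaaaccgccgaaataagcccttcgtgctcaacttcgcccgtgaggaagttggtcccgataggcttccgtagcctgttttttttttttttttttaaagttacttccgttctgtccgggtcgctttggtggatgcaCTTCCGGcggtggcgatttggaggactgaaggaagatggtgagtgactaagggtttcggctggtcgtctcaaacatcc
Psmd6: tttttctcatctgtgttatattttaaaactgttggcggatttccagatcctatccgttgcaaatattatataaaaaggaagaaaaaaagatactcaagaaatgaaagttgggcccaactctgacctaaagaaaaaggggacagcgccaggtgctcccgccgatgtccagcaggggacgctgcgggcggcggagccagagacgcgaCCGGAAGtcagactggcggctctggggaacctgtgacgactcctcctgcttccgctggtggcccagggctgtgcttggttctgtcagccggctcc
Psmd12: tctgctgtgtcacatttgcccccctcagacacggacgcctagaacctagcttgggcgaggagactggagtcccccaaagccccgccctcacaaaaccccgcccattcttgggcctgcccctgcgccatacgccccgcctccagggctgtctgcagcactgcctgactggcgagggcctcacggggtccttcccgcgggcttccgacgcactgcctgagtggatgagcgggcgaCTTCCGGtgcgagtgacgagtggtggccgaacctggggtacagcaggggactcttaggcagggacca
Psmb8: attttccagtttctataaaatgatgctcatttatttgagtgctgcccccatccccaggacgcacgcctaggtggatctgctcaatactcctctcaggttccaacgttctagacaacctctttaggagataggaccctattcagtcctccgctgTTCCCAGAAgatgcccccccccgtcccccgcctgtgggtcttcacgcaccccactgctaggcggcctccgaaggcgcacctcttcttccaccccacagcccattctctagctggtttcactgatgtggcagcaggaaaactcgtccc
Psmb9: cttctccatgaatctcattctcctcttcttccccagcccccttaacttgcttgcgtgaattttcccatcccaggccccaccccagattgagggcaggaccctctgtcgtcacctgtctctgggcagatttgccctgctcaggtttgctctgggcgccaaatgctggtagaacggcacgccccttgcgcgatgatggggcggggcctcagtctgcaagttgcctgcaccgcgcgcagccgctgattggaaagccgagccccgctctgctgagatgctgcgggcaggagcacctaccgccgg

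Levels were set against transcript length to compare genes with each other, as the mean CPM per kb over all 11 libraries of the principal transcript. Where several transcripts shared the best principal rank, the longest was used. The order of genes thus depends on the annotated length, which was 798 bases for Psmb6 and 2911 for Psma2. The most abundant were Psma7 at 480 CPM per kb, Psmb6 at 465, Psmb8 at 463, Psmb2 at 450 and Psma1 at 430. An inducible subunit thus stood among the highest: Psmb8 was above its constitutive counterpart Psmb5, which had 137 CPM per kb, while Psmb9 (189) was below Psmb6 and Psmb10 had 107 beside 106 for Psmb7. The lowest were Psme4, an activator best known from testis, at 3.72 CPM per kb, Psme3, the nuclear activator, at 12.1, and Psma8, the testis form of Psma7, at 15.0. Psma7 and Psma8 are close copies, and reads could be shared between them.

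**Figure D2:**
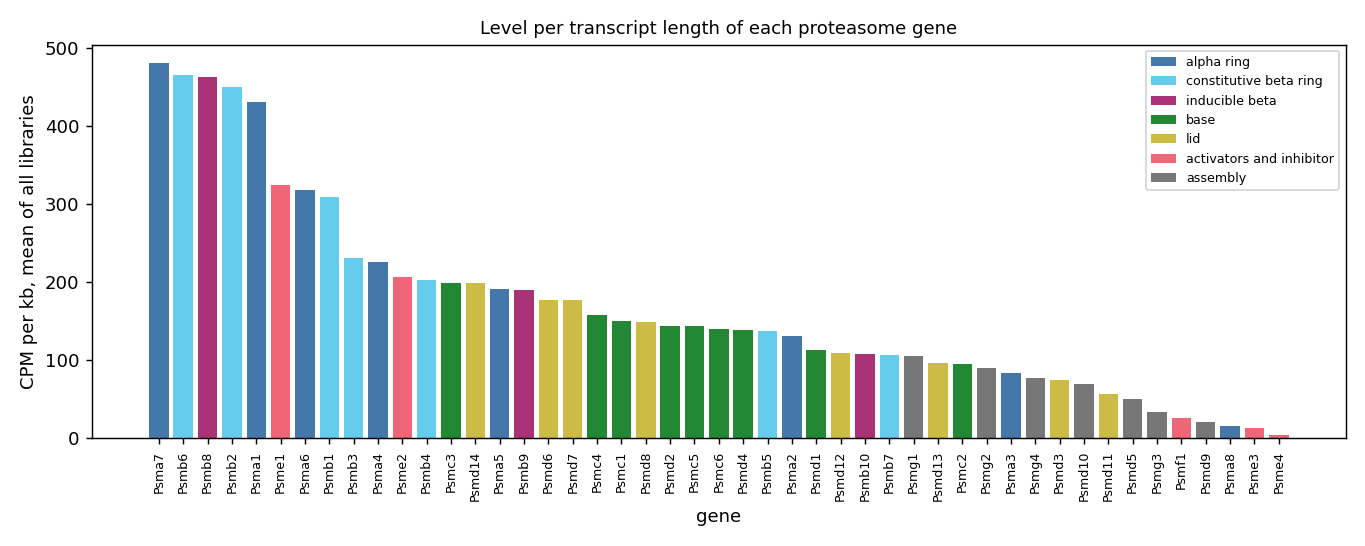
Mean level over the 11 libraries of each gene in CPM per kb of its principal transcript (bars from 0), ordered from high to low and coloured by class. Psma7, Psmb6, Psmb8, Psmb2 and Psma1 lie between 430 and 480 CPM per kb, and Psme4, Psme3 and Psma8 at 15.0 or below.

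The difference between depleted and control mice was averaged over both CD41 fractions. Of 47 members 12 were higher and 0 lower, where 3.6% of all 13448 genes tested were called higher and 2.73% lower (edgeR quasi-likelihood test with Benjamini-Hochberg adjustment at 0.05). Of the 12, 8 were in the base (of 9), 3 in the lid (of 8) and 1 in the constitutive beta ring (of 7). No member of the alpha ring, the inducible subunits, the activators or the assembly factors passed by edgeR. At an unadjusted p under 0.05 were 6, 1, 1 and 1 of them, beside 2863 of all 13448 genes. Outside the alpha ring, the 1 gene in each class is no result about that class. DESeq2 called 2, 0, 0 and 1 in the same order. The median log2 fold change was 0.50 in the base, 0.44 in the lid, 0.33 in the alpha ring, 0.29 in the constitutive beta ring, 0.12 in the activators, -0.03 in the assembly factors and -0.25 in the inducible subunits, against -0.01 over all genes tested. In 19 of 47 members every depleted library was above every control library within both fractions, which held for 4.42% of all genes. Those 19 included 7 of 9 base and 6 of 8 lid genes.

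**Figure D3:**
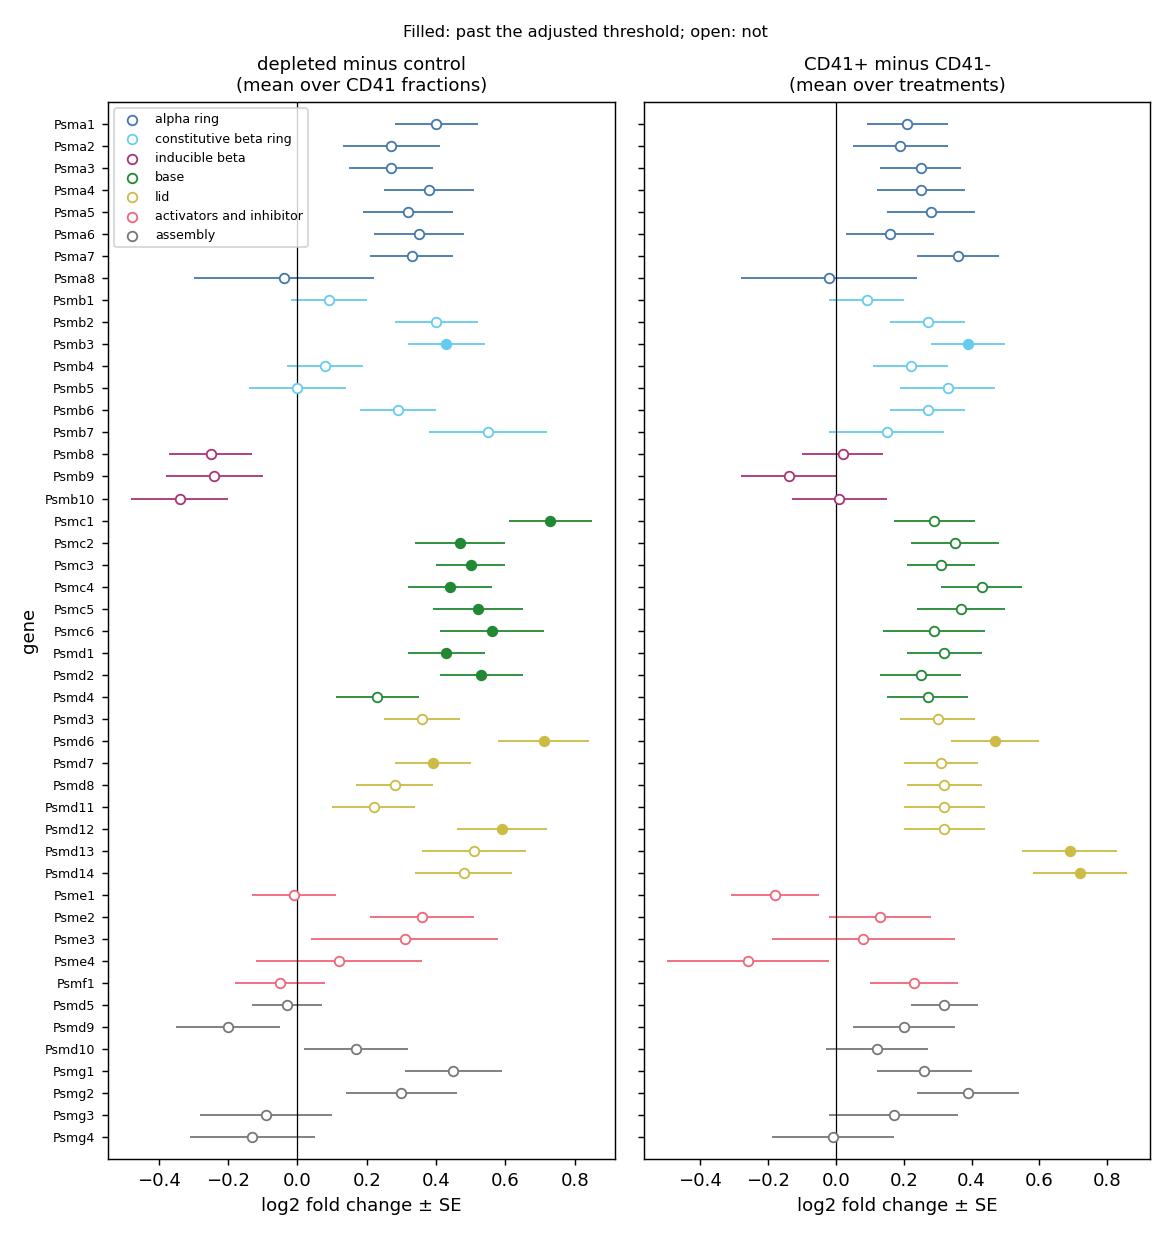
Log2 fold change ± SE of each gene for depleted minus control (left, averaged over CD41 fractions) and for CD41+ minus CD41- (right, averaged over treatments), with genes coloured by class and filled points past the adjusted threshold. On the left 8 base genes, 3 lid genes and Psmb3 are filled and the inducible genes lie between -0.34 and -0.24, and on the right 3 lid genes and Psmb3 are filled.

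The base had the most calls in the main edgeR fit. Summed over its 9 genes it reached 3138, 3055 and 3136 CPM in depleted CD41+, against 2058 and 2358 CPM in control CD41+, and 2635, 2251 and 2647 CPM in depleted CD41-, against 1929, 1736 and 1661 CPM in control CD41-. The means in depleted over control libraries gave a fold of 1.41 in CD41+ cells and 1.41 in CD41- cells, and the libraries did not overlap in either. The lead of the base in calls depended on single libraries. Without control CD41+ replicate 1 the base, the lid and the constitutive beta ring had 1 call each. Without depleted CD41- replicate 1 or 3 the base and the lid had 2 each. Leaving out any other library, the base had more calls than the lid.

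Psmc1 (ENSMUSG00000021178, chr12:100110154-100123405, plus strand) is an ATPase of the ring that faces the core (coordinates of genes are GRCm38, GENCODE M21). It had 280, 328 and 350 CPM in depleted CD41+, against 190 and 201 CPM in control CD41+, and 268, 217 and 309 CPM in depleted CD41-, against 176, 150 and 147 CPM in control CD41-. All depleted libraries were above all control libraries of their fraction, and the log2 fold change averaged over fractions was 0.73 ± 0.12 (adjusted p = 0.00432), the highest of the members. Psmc1 passed in all 16 alternative analyses.

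Psmc3 (ENSMUSG00000002102, chr2:91054009-91066369, plus strand), an ATPase whose tail helps to open the gate of the core, had 374, 430 and 425 CPM in depleted CD41+, against 283 and 320 CPM in control CD41+, and 345, 339 and 344 CPM in depleted CD41-, against 242, 250 and 211 CPM in control CD41-. The groups stood apart in both fractions, and it rose by a log2 fold change of 0.50 ± 0.10 (adjusted p = 0.0138). Of its exon bases 8.2% overlap Slc39a13 on the other strand, and whether counting used strand is not given in the sources here.

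The other ATPases gave smaller or more scattered differences. Psmc2 had 236, 200 and 221 CPM in depleted CD41+, against 131 and 182 CPM in control CD41+, and 185, 143 and 183 CPM in depleted CD41-, against 133, 128 and 110 CPM in control CD41-, a log2 fold change of 0.47 ± 0.13 (adjusted p = 0.0467). Psmc4 had 298, 273 and 332 CPM in depleted CD41+, against 214 and 224 CPM in control CD41+, and 221, 207 and 233 CPM in depleted CD41-, against 181, 130 and 185 CPM in control CD41-, with a log2 fold change of 0.44 ± 0.12 (adjusted p = 0.0484). Both were higher in each depleted library than in any control library of the same fraction. Psmc5 had 236, 239 and 259 CPM in depleted CD41+, against 162 and 190 CPM in control CD41+, and 208, 165 and 214 CPM in depleted CD41-, against 142, 153 and 101 CPM in control CD41-, and rose by a log2 fold change of 0.52 ± 0.13 (adjusted p = 0.034) without overlap. Psmc6 had 529, 325 and 394 CPM in depleted CD41+, against 266 and 271 CPM in control CD41+, and 350, 264 and 363 CPM in depleted CD41-, against 197, 273 and 219 CPM in control CD41-, and rose by a log2 fold change of 0.56 ± 0.15 (adjusted p = 0.0385). Its CD41- libraries overlapped, since 1 control library was above 1 depleted library.

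Psmd1 and Psmd2 are the large scaffold subunits of the base, and Psmd2 docks the shuttle factors that bring substrates. Psmd1 had 472, 438 and 407 CPM in depleted CD41+, against 307 and 374 CPM in control CD41+, and 393, 341 and 364 CPM in depleted CD41-, against 299, 256 and 229 CPM in control CD41-, a log2 fold change of 0.43 ± 0.11 (adjusted p = 0.041). Psmd2 had 508, 613 and 529 CPM in depleted CD41+, against 323 and 396 CPM in control CD41+, and 478, 390 and 447 CPM in depleted CD41-, against 373, 273 and 316 CPM in control CD41-, a log2 fold change of 0.53 ± 0.12 (adjusted p = 0.021). Neither overlapped between treatments. The ubiquitin receptor Psmd4 was the base gene that did not pass, with 205, 211 and 219 CPM in depleted CD41+, against 182 and 200 CPM in control CD41+, and 186, 184 and 189 CPM in depleted CD41-, against 185, 123 and 143 CPM in control CD41-. Its log2 fold change was 0.23 ± 0.12 (adjusted p = 0.294), and 1 control CD41- library lay within the range of the depleted ones.

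The lid followed with 3 calls. Its 8 genes summed to 2537, 2216 and 2298 CPM in depleted CD41+, against 1637 and 1861 CPM in control CD41+, and 1792, 1604 and 1859 CPM in depleted CD41-, against 1368, 1298 and 1125 CPM in control CD41-. The depleted libraries were above the control libraries in both fractions, with folds of 1.34 in CD41+ and 1.39 in CD41- cells between the means.

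Psmd6 (ENSMUSG00000021737, chr14:14112174-14120984, minus strand), a scaffold subunit of the lid, had 426, 320 and 326 CPM in depleted CD41+, against 178 and 236 CPM in control CD41+, and 251, 224 and 260 CPM in depleted CD41-, against 162, 172 and 138 CPM in control CD41-. Every depleted library was above every control library of its fraction. The log2 fold change was 0.71 ± 0.13 (adjusted p = 0.00599), and the gene passed in all 16 alternatives.

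Psmd12, another scaffold subunit, had 279, 285 and 308 CPM in depleted CD41+, against 150 and 187 CPM in control CD41+, and 202, 170 and 236 CPM in depleted CD41-, against 169, 132 and 162 CPM in control CD41-. The separation was wide in CD41+ cells and narrow in CD41- cells, where the lowest depleted library was barely above the highest control. Psmd12 rose by a log2 fold change of 0.59 ± 0.13 (adjusted p = 0.0153) on average. Psmd7, the inactive partner of the deubiquitinase Psmd14, had 319, 352 and 384 CPM in depleted CD41+, against 243 and 288 CPM in control CD41+, and 285, 259 and 302 CPM in depleted CD41-, against 237, 214 and 200 CPM in control CD41-, without overlap, and rose by a log2 fold change of 0.39 ± 0.11 (adjusted p = 0.0484). Psmd14 itself had 533, 370 and 383 CPM in depleted CD41+, against 331 and 337 CPM in control CD41+, and 286, 253 and 311 CPM in depleted CD41-, against 235, 177 and 147 CPM in control CD41-. It did not overlap between treatments either, yet its log2 fold change of 0.48 ± 0.14 (adjusted p = 0.0667) did not pass by edgeR. It passed in 3 of 16 alternatives, by DESeq2, unfiltered and without control CD41- replicate 1. Psmd13 had a log2 fold change of 0.51 ± 0.15 (adjusted p = 0.0528), and Psmd3, Psmd8 and Psmd11 had log2 fold changes of 0.36 ± 0.11, 0.28 ± 0.11 and 0.22 ± 0.12, none past the threshold by edgeR. DESeq2 called Psmd3 and Psmd13, and Psmd13 also passed by limma voom, with library size alone, unfiltered and without control CD41- replicate 2.

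**Figure D4:**
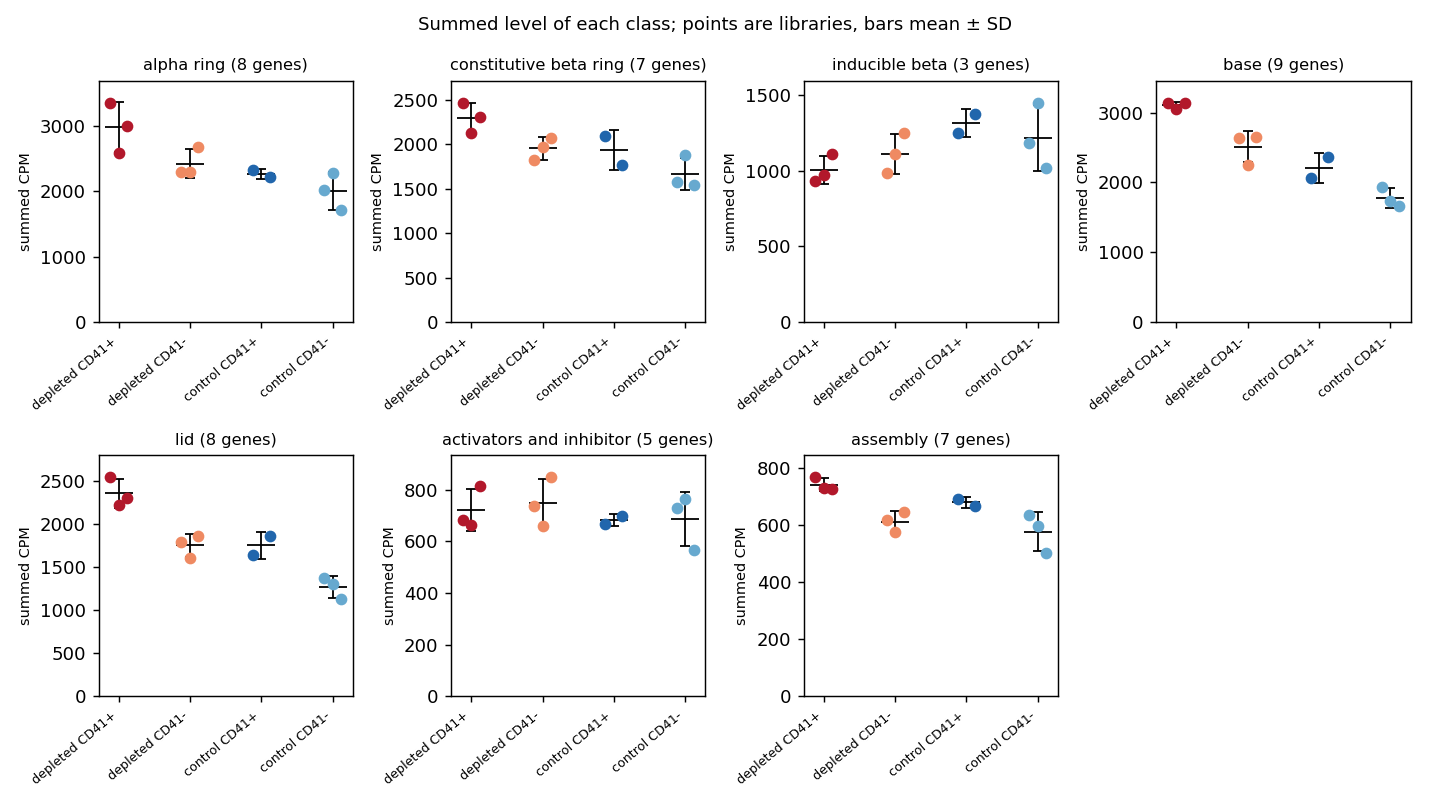
Summed TMM-scaled CPM of the genes of each class (y axes from 0) in each library (points, with mean ± SD) for the 4 groups. Base and lid sums are higher in depleted than in control libraries of the same CD41 fraction, with no overlap, whereas inducible beta sums are lower in depleted CD41+ (932–1110 CPM) than in control CD41+ libraries (1250 and 1379 CPM).

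In the core the differences were smaller. The 8 alpha-ring genes gave no call in the main edgeR fit, and 7 of them had positive log2 fold changes, up to 0.40 ± 0.12 for Psma1 (adjusted p = 0.075). The exception was Psma8 at -0.04 ± 0.26. DESeq2 called Psma1 and Psma4, and Psma1 also passed with library size alone and without depleted CD41+ replicate 2. The alpha-ring sum averaged 2975 ± 379 CPM in depleted CD41+ against 2266 ± 74.9 CPM in control CD41+ cells, and 2414 ± 223 CPM in depleted CD41- against 1998 ± 286 CPM in control CD41- cells (SD, n = 3, 2, 3 and 3). The fold between means was 1.31 and 1.21.

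Of the constitutive beta ring 1 gene passed by edgeR, Psmb3, a subunit without a catalytic site, and DESeq2 and limma voom each called 3, Psmb2, Psmb3 and Psmb7. It had 256, 217 and 239 CPM in depleted CD41+, against 167 and 159 CPM in control CD41+, and 162, 163 and 176 CPM in depleted CD41-, against 122, 130 and 150 CPM in control CD41-, without overlap, and rose by a log2 fold change of 0.43 ± 0.11 (adjusted p = 0.0334). Psmb5, the chymotrypsin-like subunit, had 177, 121 and 112 CPM in depleted CD41+, against 142 and 143 CPM in control CD41+, and 104, 122 and 116 CPM in depleted CD41-, against 99.8, 129 and 93.9 CPM in control CD41-. The treatments overlapped in both fractions, with a log2 fold change of 0.00 ± 0.14 (adjusted p = 1). Psmb6, the caspase-like subunit, had 449, 429 and 445 CPM in depleted CD41+, against 414 and 326 CPM in control CD41+, and 333, 393 and 399 CPM in depleted CD41-, against 304, 330 and 263 CPM in control CD41-. Depleted libraries were the higher ones without overlap, at a log2 fold change of 0.29 ± 0.11 (adjusted p = 0.152), short of the threshold. Psmb7, the trypsin-like subunit, had 149, 136 and 162 CPM in depleted CD41+, against 110 and 101 CPM in control CD41+, and 126, 125 and 166 CPM in depleted CD41-, against 76.5, 130 and 67.6 CPM in control CD41-. Its log2 fold change of 0.55 ± 0.17 (adjusted p = 0.0705) did not pass by edgeR as filtered, and 1 control CD41- library lay within the range of the depleted ones. Psmb7 passed in 4 of 16 alternatives, by DESeq2, by limma voom, unfiltered (where Psmb3 did not) and without control CD41- replicate 2. Of its exon bases 11.8% overlap Nek6 on the other strand. Psmb1, Psmb2 and Psmb4 had log2 fold changes of 0.09 ± 0.11, 0.40 ± 0.12 and 0.08 ± 0.11.

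The inducible subunits had negative fold changes, and none passed by edgeR, DESeq2 or limma voom. Psmb8 and Psmb9 lie side by side in the MHC region with the peptide transporter gene Tap1. Psmb8 (ENSMUSG00000024338, chr17:34197721-34201454, plus strand), the counterpart of Psmb5, had 636, 649 and 729 CPM in depleted CD41+, against 824 and 920 CPM in control CD41+, and 631, 742 and 801 CPM in depleted CD41-, against 746, 923 and 686 CPM in control CD41-. In CD41+ cells the depleted libraries were all below the controls, and in CD41- cells they overlapped. The log2 fold change was -0.38 ± 0.17 (adjusted p = 0.395) in CD41+ and -0.12 ± 0.15 (adjusted p = 0.761) in CD41- cells. An antisense gene, Gm20496, covers 14.7% of the exon bases of Psmb8 and could share its reads.

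Psmb9 (ENSMUSG00000096727, chr17:34181987-34187764, minus strand), the counterpart of Psmb6, had 196, 192 and 237 CPM in depleted CD41+, against 271 and 298 CPM in control CD41+, and 234, 257 and 308 CPM in depleted CD41-, against 277, 338 and 202 CPM in control CD41-. It was again lower without overlap in depleted CD41+ libraries, and overlapped in CD41- cells. The log2 fold change was -0.45 ± 0.21 (adjusted p = 0.41) in CD41+ and -0.03 ± 0.19 (adjusted p = 0.957) in CD41- cells. Tap1 covers 5.8% of its exon bases. Psmb10 (ENSMUSG00000031897, chr8:105935735-105938444, minus strand), the counterpart of Psmb7, had 100, 132 and 144 CPM in depleted CD41+, against 155 and 161 CPM in control CD41+, and 120, 111 and 141 CPM in depleted CD41-, against 159, 187 and 130 CPM in control CD41-. Its log2 fold changes were -0.32 ± 0.20 (adjusted p = 0.555) and -0.36 ± 0.18 (adjusted p = 0.339), with all depleted CD41+ libraries below the controls. All 3 inducible genes were thus lower without overlap in CD41+ cells, a pattern found in 13.8% of all genes in that comparison, and averaged over fractions they had log2 fold changes of -0.25 ± 0.12 (adjusted p = 0.238), -0.24 ± 0.14 (adjusted p = 0.352) and -0.34 ± 0.14 (adjusted p = 0.165) in the order Psmb8, Psmb9, Psmb10.

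Ratios within a library do not depend on the scaling between libraries, and they set the inducible against the constitutive subunits directly. The log2 ratio of the summed Psmb8, Psmb9 and Psmb10 counts to the summed Psmb5, Psmb6 and Psmb7 counts was 0.27, 0.51 and 0.63 in depleted CD41+, against 0.91 and 1.27 in control CD41+, and 0.81, 0.80 and 0.87 in depleted CD41-, against 1.30, 1.30 and 1.26 in control CD41-. The ratio was lower after depletion without overlap in both fractions, with differences between means of -0.63 in CD41+ and -0.46 in CD41- cells. Against the base the gap was wider, and the log2 ratio of inducible to base counts was -1.75, -1.65 and -1.50 in depleted CD41+, against -0.72 and -0.77 in control CD41+, and -1.42, -1.02 and -1.08 in depleted CD41-, against -0.71, -0.26 and -0.71 in control CD41-. The difference of means was -0.89 in CD41+ and -0.62 in CD41- cells, without overlap. These ratios are given as values with no test. The base had the highest class median and the inducible subunits the lowest, so the wider gap restates those medians.

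Of the 3 exchanged pairs, Psmb10 over Psmb7 gave the widest gap. Its log2 ratio was -0.57, -0.04 and -0.17 in depleted CD41+, against 0.50 and 0.68 in control CD41+, and -0.07, -0.17 and -0.24 in depleted CD41-, against 1.06, 0.52 and 0.95 in control CD41-. Depleted libraries were below 0 and control libraries above 0 in both fractions. Psmb9 over Psmb6 was -1.20, -1.16 and -0.91 in depleted CD41+, against -0.61 and -0.13 in control CD41+, and -0.51, -0.61 and -0.38 in depleted CD41-, against -0.13, 0.03 and -0.38 in control CD41-, apart in CD41+ cells only. Psmb8 over Psmb5 was 1.85, 2.43 and 2.70 in depleted CD41+, against 2.54 and 2.68 in control CD41+, and 2.60, 2.61 and 2.78 in depleted CD41-, against 2.90, 2.84 and 2.87 in control CD41-, apart in CD41- cells only. Being ratios of counts and not per length, they compare libraries and not the abundance of the paired genes.

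**Figure D5:**
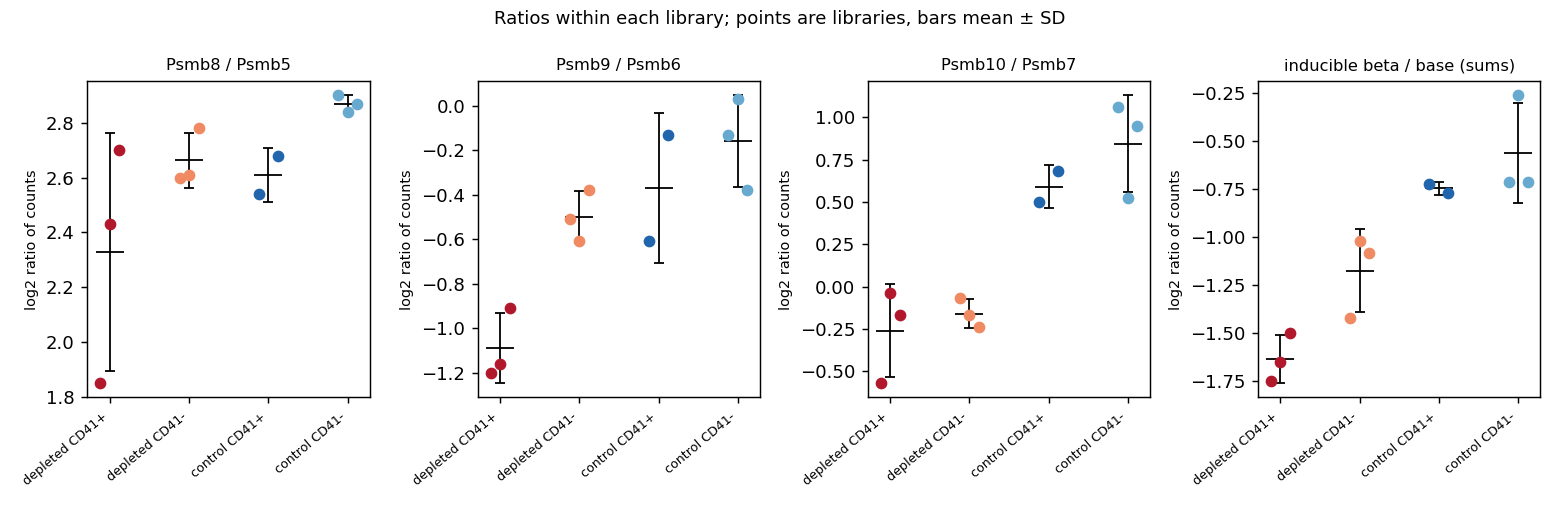
Log2 ratios of raw counts within each library (points, with mean ± SD) for the 3 pairs of inducible over constitutive catalytic subunits and for the summed inducible subunits over the summed base, in the 4 groups. Psmb10 over Psmb7 lies between -0.57 and -0.04 in depleted libraries and between 0.50 and 1.06 in control libraries, and inducible over base lies lowest in depleted CD41+ libraries (-1.75 to -1.50).

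Activators, the inhibitor and the assembly factors gave no call by edgeR. Psme1 and Psme2, which form the interferon-induced cap of the core, had log2 fold changes of -0.01 ± 0.12 (adjusted p = 0.976) and 0.36 ± 0.15 (adjusted p = 0.195). A copy of Psme2 without introns, Psme2b, had 242 counts in all and could share its reads. Psme3 had a log2 fold change of 0.31 ± 0.27, Psme4 0.12 ± 0.24 and the inhibitor Psmf1 -0.05 ± 0.13. Among assembly factors Psmg1, a chaperone of the alpha ring, had 132, 134 and 151 CPM in depleted CD41+, against 106 and 92.9 CPM in control CD41+, and 116, 100 and 122 CPM in depleted CD41-, against 94.1, 97.4 and 64.2 CPM in control CD41-. Depleted libraries were above control libraries in both fractions, at a log2 fold change of 0.45 ± 0.14 (adjusted p = 0.0706), and DESeq2 and limma voom called it. Psmg2, its partner, had a log2 fold change of 0.30 ± 0.16, and Psmg3 and Psmg4 had -0.09 ± 0.19 and -0.13 ± 0.18. The chaperones of the base Psmd5, Psmd9 and Psmd10 had log2 fold changes of -0.03 ± 0.10, -0.20 ± 0.15 and 0.17 ± 0.15.

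Within single fractions fewer members passed. In CD41- cells Psmc1 rose by a log2 fold change of 0.75 ± 0.16 (adjusted p = 0.023) and Psmc3 by 0.55 ± 0.14 (adjusted p = 0.0431), 2 of 47 members where 2.3% of all genes were called higher. So few calls are near that share and are no result about the members as a set. Leaving out a single library, the count was 0 for depleted CD41- replicates 1 and 3 and for replicate 3 of control CD41-. It was 1 for depleted CD41+ replicates 2 and 3, for the second depleted CD41- library, for control CD41+ replicate 2 and for the other two control CD41- libraries, and 4 for the first depleted CD41+ library. Next by p, again on the log2 scale, were Psmd6 at 0.64 ± 0.17 (adjusted p = 0.0582) and Psmd13 at 0.72 ± 0.19 (adjusted p = 0.064). In CD41+ cells 0 members passed by edgeR, where 0.0372% of all genes were called higher. At an unadjusted p under 0.05 were 19 members, beside 1646 of all 13448 genes. DESeq2 called 4 members and limma voom 0. The smallest p there belonged, with log2 fold changes, to Psmd6 at 0.78 ± 0.19 (adjusted p = 0.156), Psmd12 at 0.79 ± 0.19 (adjusted p = 0.156), Psmc1 at 0.71 ± 0.19 (adjusted p = 0.167) and Psmd2 at 0.61 ± 0.18 (adjusted p = 0.203). The base had median log2 fold changes of 0.48 in CD41+ and 0.49 in CD41- cells, and the lid 0.34 and 0.39.

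Whether the response differed between the fractions was tested directly, and 0 members passed by edgeR (0% of all genes called), DESeq2 or limma voom. At an unadjusted p under 0.05 by edgeR were 0 members, beside 825 of all 13448 genes. The smallest p belonged to Psmd12, Psmb9, Psma3 and Psmd13, whose differences of responses were 0.40 ± 0.25, -0.42 ± 0.28, 0.41 ± 0.23 and -0.41 ± 0.29 on the log2 scale. Their SE was as large as many of the responses, so the responses are not shown to be alike.

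The count of 12 depended on single libraries. Leaving out 1 library at a time, it was 5 for depleted CD41+ replicate 3, 4 for replicate 1 or 3 of depleted CD41-, 3 for replicate 1 of control CD41+, 6 for its replicate 2, and 7 for control CD41- replicate 3. DESeq2 called 20. Over the 16 alternatives Psmc3 and Psmd12 passed in 15 each, Psmd2 in 13, Psmc5 in 9, Psmc6 in 8, Psmc2 and Psmb3 in 7 each, Psmd1 in 6, and Psmc4 and Psmd7 in 5 each. Cell cycle transcripts moved beside the base and lid: 12 of 15 listed genes were called higher and 0 lower, with sums of 6610–7670 CPM in depleted CD41+ against 5980–6550 CPM in control CD41+ libraries, and 5910–6660 CPM in depleted CD41- against 2670–3380 CPM in control CD41- libraries. Those sums differed by a fold of 1.15 in CD41+ and 2.07 in CD41- cells, while the base differed by 1.41 in each. Of the stem cell markers 3 of 10 were lower and 0 higher, and of the megakaryocyte and platelet markers 6 of 11 tested were lower and 0 higher (Gp6 was at 0). Endothelial and stromal markers, 9 of 10 tested with 0 called, had a median log2 fold change of 2.39. They summed to 308–524 CPM in depleted CD41+ against 184–336 CPM in control CD41+ libraries, and to 69.9–389 CPM in depleted CD41- against 77.6–112 CPM in control CD41- libraries. Macrophage markers, with 0 of 8 called, had sums 1.28-fold and 1.78-fold those of controls in CD41+ and CD41- cells. Of the lymphoid markers 1 of 6 tested was lower, and 0 of 10 erythroid and 0 of 12 neutrophil markers were called. The part of these transcripts in the result was not tested.

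How CD41+ cells differ from CD41- cells was read from the difference averaged over treatments. Of 47 members 4 were higher and 0 lower, where 2.73% of all genes were called higher and 2.65% lower. They were the lid genes Psmd14, Psmd13 and Psmd6, and Psmb3. The median log2 fold change was 0.32 in the lid, 0.31 in the base, 0.27 in the constitutive beta ring, 0.23 in the alpha ring, 0.20 in the assembly factors, 0.08 in the activators and 0.01 in the inducible subunits, against -0.03 over all genes. Every CD41+ library was above every CD41- library of the same treatment in 15 members, among them 7 of 8 lid genes, where 3.81% of all genes did so.

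Psmd14 (ENSMUSG00000026914, chr2:61711694-61800376, plus strand), the deubiquitinase of the lid, had 533, 370 and 383 CPM in depleted CD41+, against 286, 253 and 311 CPM in depleted CD41-, and 331 and 337 CPM in control CD41+, against 235, 177 and 147 CPM in control CD41-. CD41+ libraries were higher without overlap in both treatments, and the log2 fold change of 0.72 ± 0.14 (adjusted p = 0.0122) passed in all 17 alternatives. Psmd13 (ENSMUSG00000025487, chr7:140881968-140898643, plus strand), a scaffold subunit, had 324, 226 and 239 CPM in depleted CD41+, against 194, 175 and 192 CPM in depleted CD41-, and 181 and 241 CPM in control CD41+, against 120, 134 and 87.1 CPM in control CD41-. It was higher by a log2 fold change of 0.69 ± 0.14 (adjusted p = 0.0156) without overlap, and by 0.89 ± 0.21 (adjusted p = 0.0433) in control mice. Sirt3, on the other strand, covers 10.1% of its exon bases.

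Psmd6 was higher in CD41+ cells by a log2 fold change of 0.47 ± 0.13 (adjusted p = 0.0458) and Psmb3 by 0.39 ± 0.11 (adjusted p = 0.0483), both without overlap of libraries, though each passed in 6 of 17 alternatives. Over the lid, CD41+ cells averaged 2350 ± 167 CPM against 1752 ± 132 CPM in CD41- cells after depletion, and 1749 ± 158 CPM against 1264 ± 125 CPM in controls. For the inducible subunits these were 1005 ± 93.1 CPM against 1114 ± 133 CPM, and 1314 ± 90.8 CPM against 1216 ± 217 CPM (SD, n = 3, 3, 2 and 3). The lid differed by folds of 1.34 and 1.38 and the inducible subunits by 0.902 and 1.08. The catalytic subunits Psmb5, Psmb6 and Psmb7 had log2 fold changes of 0.33 ± 0.14, 0.27 ± 0.11 and 0.15 ± 0.17, and Psmb8, Psmb9 and Psmb10 of 0.02 ± 0.12, -0.14 ± 0.14 and 0.01 ± 0.14.

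In control mice 1 member passed, Psmd13, where 1.58% of all genes were called higher, which is no result about the members as a set. That count was 0 without any 1 of the depleted CD41- libraries, both control CD41+ libraries, depleted CD41+ replicate 3 and control CD41- replicate 3, and 2 without depleted CD41+ replicate 1. Next by p came the log2 fold changes of Psmd14 at 0.84 ± 0.21 (adjusted p = 0.0502), Psmd8 at 0.44 ± 0.16 (adjusted p = 0.156) and Psmc3 at 0.36 ± 0.15 (adjusted p = 0.215). After depletion 0 members passed by edgeR, where 0.0669% of all genes were called higher (1 by DESeq2, 0 by limma voom). At an unadjusted p under 0.05 were 10 members, beside 1234 of all 13448 genes. There the smallest p belonged, with log2 fold changes, to Psmb3 at 0.50 ± 0.14 (adjusted p = 0.214), Psmd6 at 0.54 ± 0.17 (adjusted p = 0.274), Psmd12 at 0.52 ± 0.17 (adjusted p = 0.288) and Psmd14 at 0.59 ± 0.19 (adjusted p = 0.302). The averaged count of 4 was 1 without control CD41+ replicate 2, 2 without any 1 of control CD41- replicate 1, the 3 depleted CD41- libraries and replicates 1 and 3 of depleted CD41+, 2 with library size alone and 12 with DESeq2. Of the cell cycle genes 11 of 15 were higher and 0 lower in CD41+ cells. Their sums differed by a fold of 1.12 after depletion and 2.02 in controls. The neutrophil markers summed to means 1.89-fold and 4.4-fold higher in CD41+ cells after depletion and in controls, with 0 of 12 called. Of the megakaryocyte and platelet markers 8 of 11 were higher, of the stem cell markers 1 of 10 was higher and 4 lower, and of the endothelial and stromal markers 4 of 9 were higher, with sums 2.44-fold and 2.9-fold those of CD41- cells after depletion and in controls. Macrophage sums were 2.01-fold and 2.79-fold those of CD41- cells, and 1 each of the macrophage (of 8), erythroid (of 10) and lymphoid (of 6) markers was higher. The part of these transcripts in the result was not tested.

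Of 33 listed genes that work with the proteasome, 32 were tested. After depletion, averaged over fractions, 1 was higher and 1 lower by edgeR, which is near the 3.6% and 2.73% of all genes and is no result about the list. Uchl5, a deubiquitinase bound to the cap, had 341, 304 and 308 CPM in depleted CD41+, against 219 and 232 CPM in control CD41+, and 227, 184 and 252 CPM in depleted CD41-, against 177, 166 and 133 CPM in control CD41-. It rose by a log2 fold change of 0.49 ± 0.12 (adjusted p = 0.0312). Irf1, an interferon-induced transcription factor known to drive the inducible subunits, had 57.8, 41.0 and 55.4 CPM in depleted CD41+, against 94.9 and 96.2 CPM in control CD41+, and 88.7, 97.6 and 118 CPM in depleted CD41-, against 122, 203 and 151 CPM in control CD41-. It fell, with a log2 fold change of -0.78 ± 0.16 (adjusted p = 0.0109). Usp14, the deubiquitinase bound to the base, had a log2 fold change of 0.40 ± 0.13 (adjusted p = 0.0868), and Pomp, the chaperone of the core, 0.22 ± 0.13 (adjusted p = 0.363). The ubiquitin receptor Adrm1 had a log2 fold change of 0.20 ± 0.15, the small lid subunit Sem1 0.21 ± 0.12 and Nfe2l1 -0.33 ± 0.24, none past the threshold by edgeR.

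In CD41+ against CD41- cells, 2 of the 32 were higher and 2 lower, where 2.73% and 2.65% of all genes were. Uchl5 was higher by a log2 fold change of 0.51 ± 0.12 (adjusted p = 0.0249) and Usp14 by 0.53 ± 0.13 (adjusted p = 0.0289). Irf1 was lower, at -0.86 ± 0.16 (adjusted p = 0.00848), and so was the shuttle factor Ubqln2 (adjusted p = 0.00738). Ubqln2 had 7.79, 7.06 and 17.5 CPM in depleted CD41+, against 7.74, 9.84 and 21.0 CPM in depleted CD41-, and 0.802 and 0.774 CPM in control CD41+, against 11.8, 27.0 and 23.6 CPM in control CD41-. It was lower in control mice (adjusted p = 0.00561), where the control CD41+ libraries held about the level of the 3-count floor (0.703–0.795 CPM), so no fold is given. The 6 listed partners of the inducible subunits had a median log2 fold change of -0.36 after depletion and -0.30 in CD41+ cells, with Irf1 the 1 call among them in each.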

How the data were processed

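Polyadenylated RNA of 1000 sorted cells per library was copied with dT priming and template switching and sequenced after tagmentation, per the labels' protocols. The submitters' processing notes name cutadapt for trimming, STAR for alignment and HTSeq 0.6.1p1 for counting, with GRCm38 as build. The deposited values are raw counts per gene. The sources here give neither its annotation release nor its strand setting.

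Symbols, coordinates and transcript lengths came from GENCODE M21. Counts were filtered by filterByExpr (minimum count 10, minimum total 15, 99.7% of counts kept), scaled by TMM and fitted with the robust quasi-likelihood model of edgeR 4.0.16 in R 4.3.3, with 1 coefficient per group over all 11 libraries and no batch or block. In each of 7 comparisons p-values were adjusted by Benjamini-Hochberg over 13448 genes at 0.05. The SE after ± of a log2 fold change was the absolute log2 fold change divided by the square root of the test's F value. As alternatives, each library was left out, and the fit was repeated with RLE factors, with library size alone, unfiltered, on the groups compared, with consecutive title numbers as a block, with DESeq2 1.42.0 and with limma 3.58.1 (voom, quality weights). The block was run only for CD41+ against CD41- cells, not for depletion. It left out control CD41- replicate 3, which has no partner by title number. For the averaged comparisons the edgeR fit was also run on simulated counts, with no outcome reported here. Sample groups came from the labels.

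Values of every library were given for members past the threshold and for the catalytic subunits. Members with the smallest p were named where under 4 passed. The members and lists were chosen with earlier results of these data known. Figures were drawn with matplotlib 3.10.9.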

Additional observations from a re-analysis of the deposited data

How the results depend on the processing

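Counts of members called that moved by over 1.5-fold are given here. Among the alternatives, the number of all genes called is given only for library size alone. Among named members no called fold change changed sign in an alternative, while values near 0 that were not called did. In the averaged CD41 comparison Psmb8 and Psmb10 each ranged from -0.07 to 0.09, and in the averaged depletion comparison Psmb5 ranged from -0.10 to 0.08. For depletion averaged over fractions (12 members) DESeq2 called 20, and leaving out single libraries gave 3 to 10. For depletion in CD41- cells (2) no filter, limma voom and the groups compared alone called 4 each, DESeq2 called 6, and leaving out libraries gave 0 to 4. For depletion in CD41+ cells (0) DESeq2 called 4. For CD41+ against CD41- cells averaged over treatments (4) library size alone called 2 and DESeq2 12, and leaving out libraries gave 1 to 4. In control mice (1), no filter and DESeq2 called 2 each, library size alone, limma voom, the groups compared alone and the block of consecutive title numbers called 0 each, and leaving out libraries gave 0 to 2. The block fit also lacked control CD41- replicate 3, and leaving out that library without a block gave 0 as well. In depleted mice (0) DESeq2 called 1. Library size alone put the median of all genes at -0.12, in place of -0.03, in the averaged CD41 comparison, with 250 genes higher and 445 lower in place of 367 and 357. In control mice it was -0.15 in place of -0.03, with 129 higher and 157 lower in place of 212 and 140. Over all alternatives of the averaged depletion comparison the class medians ranged from 0.46 to 0.57 in the base, 0.39 to 0.48 in the lid and -0.33 to -0.18 in the inducible subunits. Those of the activators (-0.01 to 0.26) and assembly factors (-0.06 to 0.03) crossed 0, as did the inducible median in CD41- cells (-0.21 to 0.02) and, in the averaged CD41 comparison, those of the inducible subunits (-0.07 to 0.08) and activators (-0.10 to 0.18). The labels state no pairing: libraries with consecutive title numbers correlated in their deviations from group means by 0.0801 to 0.343. Psma8, Psme3, Psme4 and Psmg3 had the fewest counts among the members, and depth limits them most.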
